A study of Homo sapiens with 4 samples.

Results

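The BCL2 family was represented on the panel by 3 of its 184 target assays, those of BCL2, BAX and BCL2L11, which were taken by their gene symbols. The samples were 2 cultures of HEK293-vector cells, which carry the empty pcDNA4 vector, and 2 cultures of HEK293-PRL-1 cells, which stably overexpress the phosphatase PRL-1. HEK293 cells are an established line that derives from human embryonic kidney, and neither group received a further treatment. Whether either line is 1 clone is not given in the sources used here, and PRL-1 and other differences between the transfected lines cannot be told apart. Expression was measured by quantitative RT-PCR as the threshold cycle (Ct), the cycle at which the fluorescence of a well passes a set level, so that a lower Ct means more template. The assay of PTP4A1, which encodes PRL-1, was at the limit of 40 cycles in all 4 samples, and the overexpression was therefore not checked by these values. The samples are called vector samples a and b and PRL-1 samples a and b. The letters a and b are those of the deposited columns, which are not tied to the replicate numbers of the labels.

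Proteins of the BCL2 family decide whether the outer membrane of the mitochondrion stays intact when a cell is stressed. BAX is the pore former, which opens that membrane and releases the factors that start apoptosis. BCL2 is the guardian, which binds BAX and its activators and keeps them inactive. BCL2L11 encodes BIM, a protein with only the short BH3 segment of the family, which engages BCL2 and can activate BAX. The balance between guardians, activators and pore formers, more than the level of any of them alone, is what this family is known for in cultured cells.

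Relative to 18S, transcripts of all 3 genes were higher in the PRL-1 samples than in HEK293-vector, and the changes were of very unequal size. With B2M or the median Ct of the panel as the reference this held for BCL2 alone, as given below. BCL2 rose by 5.25 on the log2 scale, BAX by 2.03 and BCL2L11 by 1.26. The same direction was called for 58.6% of the 174 assays tested, so that the direction alone does not set the 3 genes apart from the panel. The median log2 fold change of the tested assays was 1.34, and BCL2 lay 3.91 above it, BAX 0.69 above it and BCL2L11 within 0.1 of it, at −0.08. Within each sample, where no reference gene is needed, BCL2 moved from several cycles behind BCL2L11 to a Ct near it. In cultures measured in bulk, more cells with a transcript and more transcript per cell cannot be told apart. The calls came from limma with Benjamini-Hochberg adjustment over the 174 assays.

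The guardian gene, BCL2 (assay Hs99999018_m1), had raw Ct values of 36.3 and 34.8 in the vector samples and of 30.6 and 30.3 in the PRL-1 samples. Both PRL-1 samples lay at least 4.17 cycles below the lower vector value, and the groups did not overlap. ΔCt, the Ct minus the mean Ct of the 18S wells of the sample, was 21.6 ± 1.16 cycles (SD, n = 2) in the vector samples and 16.4 ± 0.168 cycles (SD, n = 2) in the PRL-1 samples. The log2 fold change of 5.25 had a standard error of 0.59 and a 95% interval of 3.67 to 6.83 (adjusted p = 0.00201 from limma). On the linear scale this was a 38.1-fold increase, with an interval of 12.8 to 114. It was the fourth largest rise of the 174 assays.

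The vector samples themselves differed by 1.52 cycles for BCL2. Only 6 of the 165 assays detected in all 4 samples differed by more between these samples, against a panel median of 0.363 cycles. Without vector sample a the increase was 21.6-fold, and without sample b it was 67.3-fold, while leaving out a PRL-1 sample moved it only between 35.1-fold and 41.4-fold. The test named in the study's methods takes the variance of each assay alone. Computed in that way for BCL2, the adjusted p was 0.0596 at the same fold change, where 24.1% of assays were called higher.

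The pore former, BAX (Hs00180269_m1), had the lowest Ct of the 3 and the smallest difference within each group. Its raw Ct values were 26.8 in both vector samples and 25.1 and 24.8 in the PRL-1 samples. The vector values were 0.0521 cycles apart, a smaller difference than in 150 of the 165 assays detected throughout, and the groups were separated by at least 1.70 cycles. ΔCt was 12.9 ± 0.0452 cycles (SD, n = 2) in the vector samples and 10.8 ± 0.133 cycles (SD, n = 2) in the PRL-1 samples. BAX rose by 2.03 on the log2 scale (standard error 0.21, 95% interval 1.46 to 2.60, adjusted p = 0.00174 from limma), a 4.08-fold increase. BAX also passed the threshold on its own variance, with an adjusted p of 0.0346, and alone of the 3 genes did so.

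The activator, BCL2L11 (Hs00197982_m1), had raw Ct values of 31.8 and 31.2 in the vector samples and of 30.6 and 30.2 in the PRL-1 samples. The groups did not overlap, but the gap between them, 0.642 cycles, was close to the 0.544 cycles between the vector samples. ΔCt was 17.5 ± 0.467 cycles (SD, n = 2) in the vector samples and 16.3 ± 0.196 cycles (SD, n = 2) in the PRL-1 samples. The log2 fold change of 1.26 (standard error 0.31, 95% interval 0.42 to 2.10) had an adjusted p of 0.0220 from limma and corresponded to a 2.39-fold increase. Without PRL-1 sample a the log2 fold change was 1.40 and without PRL-1 sample b it was 1.12. Without vector sample a it was 0.93 and without vector sample b it was 1.59. Each of these fits leaves 1 sample in a group, which is assumed to vary like the other group. Calls in such fits are therefore not read for any assay, and only the size of the change is given. In the test on the variance of BCL2L11 alone the call was lost (adjusted p = 0.107). The groups did not overlap in any of the 3 genes, which was also so, in the same direction, in 69.0% of the assays tested.

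The promoters of BAX and BCL2L11 are printed because both genes rose relative to 18S while the motifs before their start sites differ. Each is the 250 bases before the start site in RefSeq (GRCh38.p14), 5′ to 3′ on the strand of the gene, at chr19:48954625-48954874 (plus strand) for BAX and chr2:111120664-111120913 (plus strand) for BCL2L11. Capitals mark matches on either strand to the E-box CACGTG, the GC box GGGCGG, the CCAAT box CCAAT and the TATA box TATAAA.
BAX: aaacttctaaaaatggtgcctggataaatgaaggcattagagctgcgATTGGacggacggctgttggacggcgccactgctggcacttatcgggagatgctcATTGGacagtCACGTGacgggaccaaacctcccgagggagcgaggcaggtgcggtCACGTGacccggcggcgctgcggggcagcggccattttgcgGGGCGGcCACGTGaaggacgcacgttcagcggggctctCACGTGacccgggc
BCL2L11: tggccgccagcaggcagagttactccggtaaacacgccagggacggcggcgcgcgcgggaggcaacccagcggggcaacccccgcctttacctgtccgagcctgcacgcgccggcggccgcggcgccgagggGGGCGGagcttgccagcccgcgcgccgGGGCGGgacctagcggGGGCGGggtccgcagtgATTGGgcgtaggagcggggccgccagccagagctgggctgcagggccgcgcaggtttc

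The BAX sequence held 4 copies of CACGTG, which begin at −138, −93, −45 and −14 from the start site, where 6.34% of the 35116 promoters of the table hold any. It also held 1 GC box and 2 CCAAT boxes. The BCL2L11 sequence held no E-box, 3 GC boxes at −118, −91 and −75 and 1 CCAAT box at −58. A GC box was found in 42.6% and a CCAAT box in 32% of all promoters, and the TATA box, found in 10.7%, in neither of these sequences. The BCL2L11 sequence was 76.8% G and C and that of BAX 62.8%, against a median of 58.0% for all promoters. These matches are letters in a window and do not show binding. The window listed for BCL2 lies inside the annotated gene and is not printed.

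**Figure D1:**
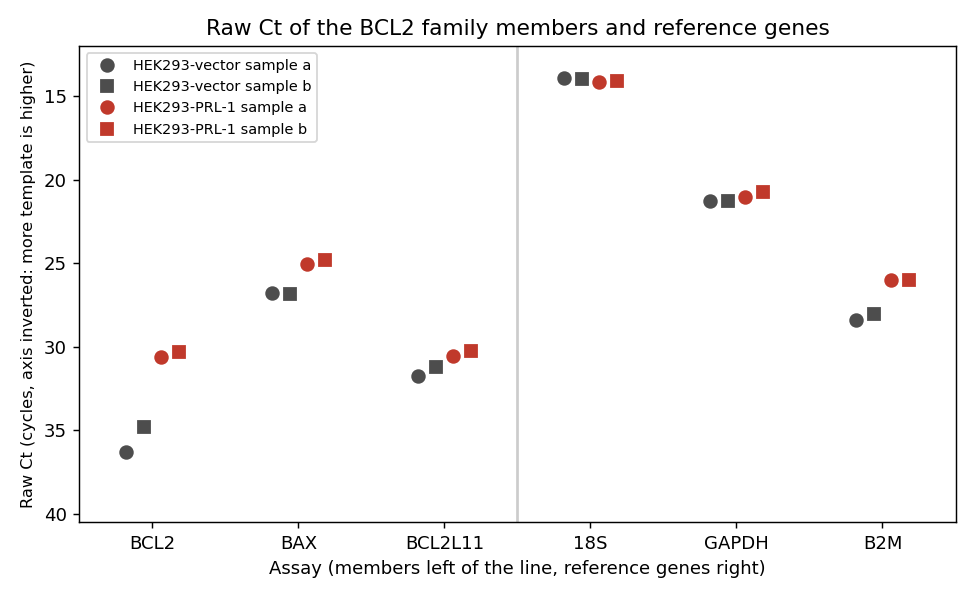
Raw Ct per sample of BCL2, BAX and BCL2L11 beside the references 18S, GAPDH and B2M, with the axis inverted so that more template is higher. Each point is 1 sample (reference genes: mean of 2 wells), grey for HEK293-vector and red for HEK293-PRL-1. BCL2 shows the widest separation of the groups and the widest spread within HEK293-vector (36.3 and 34.8), and B2M is separated as well.

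**Figure D2:**
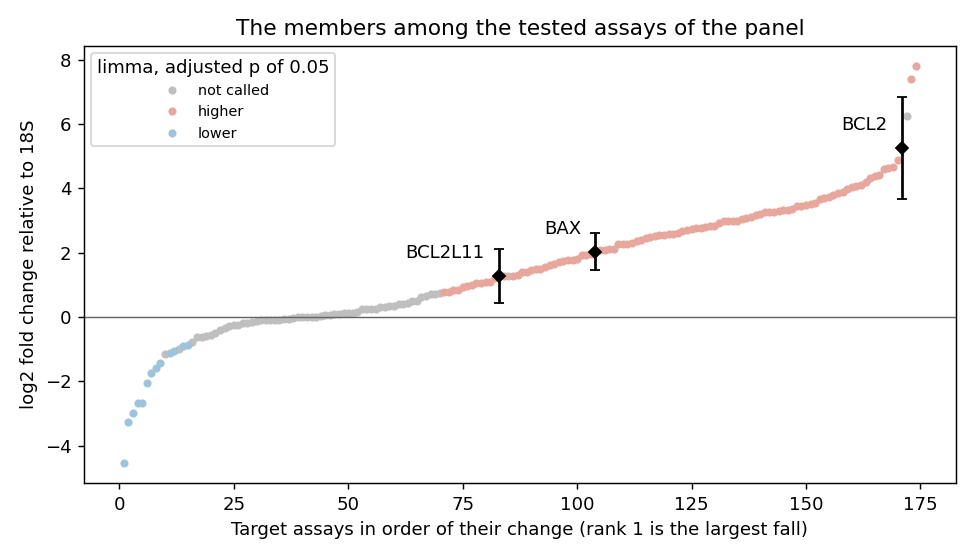
The log2 fold change relative to 18S of the 174 tested target assays, in order of size and coloured by the limma call, with the 3 genes as black diamonds with their 95% intervals. BCL2 lies at 5.25, near the upper end, and BAX (2.03) and BCL2L11 (1.26) lie in the middle of a panel whose median is 1.34.

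How far each gene rose depended on the reference. B2M, a component of the MHC class I complex, was itself higher in the PRL-1 samples relative to 18S by 2.38 (standard error 0.25) on the log2 scale, and the glycolytic gene GAPDH by 0.55 (standard error 0.22). BCL2 was called higher with each of the references used. Its log2 fold change was 4.70 against GAPDH, 2.87 against B2M and 3.06 against the median Ct of all assays with signal in every sample. With these references 49.4%, 12.6% and 25.9% of the assays were called higher. Being called higher with 18S, GAPDH, B2M and the median alike held for 20 of the 174 assays (11.5%), of which BCL2 was the only 1 among the 3 genes.

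BAX kept its rise with GAPDH, at 1.47 (adjusted p = 0.00198 from limma). It was at −0.35 with B2M (adjusted p = 0.574) and at −0.16 with the median (adjusted p = 0.539), with intervals that span 0. BCL2L11 was at 0.70 with GAPDH (adjusted p = 0.0622) and changed sign with the other references, to −1.12 with B2M (adjusted p = 0.0565) and −0.93 with the median (adjusted p = 0.00496), where it was called lower. Lower calls made up 21.8% of the assays against GAPDH, 47.1% against B2M and 51.7% against the median. With B2M limma gave the 3 genes the same standard error, 0.53, and an error in a reference is shared by all assays. The order of the changes, BCL2 above BAX above BCL2L11, is the same under each of these references by construction, since a reference shifts every assay alike.

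**Figure D3:**
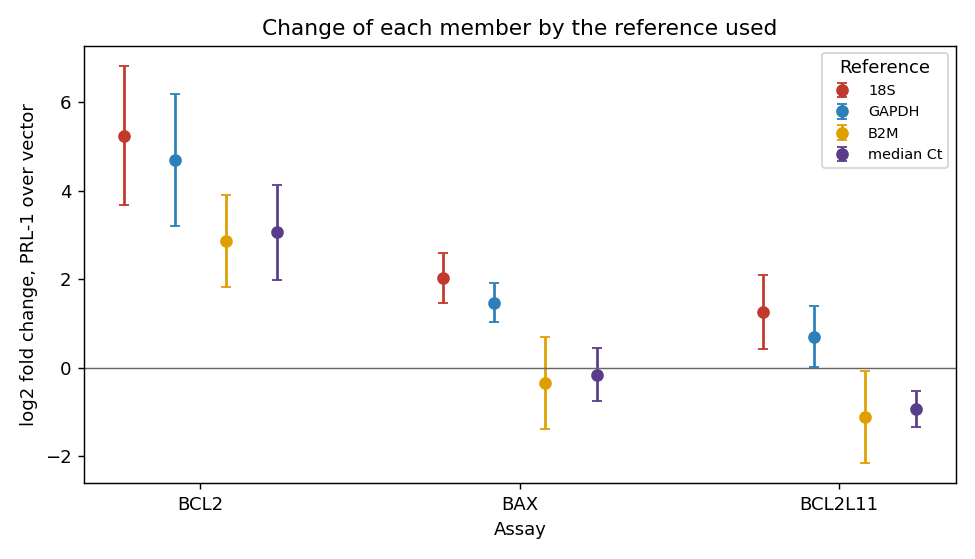
The log2 fold change of HEK293-PRL-1 over HEK293-vector for each of the 3 genes with 4 references, with 95% intervals from limma. BCL2 stays above 0 with each of them (2.87 to 5.25), whereas BAX and BCL2L11 lie above 0 with 18S and GAPDH and below 0 with B2M and the median Ct.

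The levels of the 3 genes relative to each other were therefore compared within each sample, where the reference cancels. The 3 wells lay on the same plate. The log2 ratio of a pair was taken as the Ct of the second gene minus that of the first. An equal doubling per cycle and an equal Ct for equal template were assumed for each assay, and neither was measured. A constant offset between the assays of a pair would change the ratio in every sample but not the shift between the groups. A two-sided exact permutation test of 2 against 2 samples cannot give a p below 0.333, and all 3 pairs had this value, also after adjustment over the 3 pairs. A test with limma across the panel, with the second gene of the pair as the reference, is given beside it. Its errors are shared by all assays through that gene.

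BCL2 relative to BAX, the guardian relative to the pore former, had a log2 ratio of −9.54 and −7.97 in the vector samples and of −5.56 and −5.51 in the PRL-1 samples. In terms of template, and only under these assumptions, there were 1.34 and 4.0 of BCL2 per 1000 of BAX in the vector samples. In the PRL-1 samples there were 21.2 and 22.0. The ratio was higher in both PRL-1 samples, and these lay closer to each other than the vector samples did. The difference between the group means was 3.22 on the log2 scale, a 9.34-fold shift toward BCL2 (95% interval of the log2 difference 1.77 to 4.67, adjusted p = 0.00549 from limma with BAX as the reference, where 23.7% of assays were called higher). Without vector sample a the shift was 5.41-fold and without sample b it was 16.1-fold.

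BCL2 relative to BCL2L11, the guardian relative to the activator, shifted most. The log2 ratio was −4.55 and −3.57 in the vector samples and −0.05 and −0.09 in the PRL-1 samples. Under the same assumptions there were 42.6 and 84.1 templates of BCL2 per 1000 of BCL2L11 in the vector samples and 967 and 942 in the PRL-1 samples. On the log2 scale the group means were 3.99 apart (95% interval 2.96 to 5.03, adjusted p = 0.00190 from limma with BCL2L11 as the reference, where 43.4% of assays were called higher), a 15.9-fold shift.

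BCL2L11 relative to BAX, the activator relative to the pore former, moved the other way and by less. The log2 ratio was −4.99 and −4.40 in the vector samples and −5.51 and −5.42 in the PRL-1 samples. The groups did not overlap, with a gap of 0.43 between them, but the vector samples were 0.60 apart on the same scale. The difference of −0.77 (95% interval −1.48 to −0.07) had an adjusted p of 0.0526 from limma with BAX as the reference, where 46.8% of assays were called lower, and it did not pass the threshold. Without vector sample b it was −0.47.

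**Figure D4:**
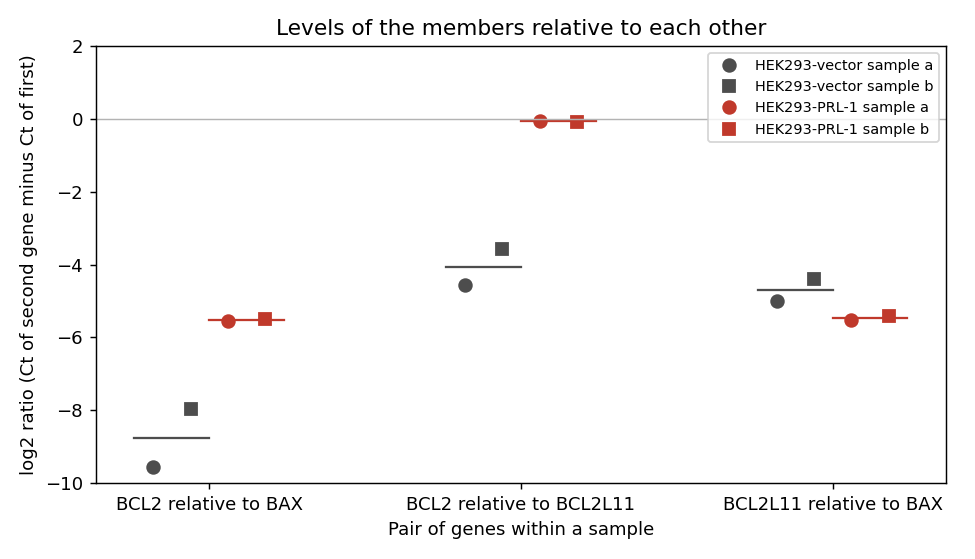
The log2 ratio of each pair of genes in each sample (Ct of the second gene minus Ct of the first), with the group means as lines. Both ratios with BCL2 as the first gene are higher in the PRL-1 samples, by 3.22 against BAX and 3.99 against BCL2L11, and the ratio of BCL2L11 to BAX is lower by less than 1.

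The places of the genes among the 165 assays detected in all samples, ordered by raw Ct from the lowest to the highest, gave a further view without a reference. BCL2 held places 146 and 137 in the vector samples and place 96 in both PRL-1 samples. BAX moved from places 14 and 13 to place 6 in both. BCL2L11 moved down, from places 76 and 77 to place 95 in both, although its Ct fell. In the order of levels, which assumes equal assays, BAX was first in every sample. BCL2L11 came before BCL2 in all 4 samples, by several cycles in HEK293-vector and by less than 0.1 cycles in HEK293-PRL-1.

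The size of the change also differed between classes of assays set by their mean Ct over the 4 samples. Of the 65 tested assays with a mean Ct under 30 over the 4 samples, BAX among them, 36.9% were called higher, with a median log2 fold change of 0.31. Of the 83 assays with a mean Ct of 30 to under 35, BCL2 and BCL2L11 among them, 79.5% were called higher, with a median of 2.70. Of the 26 assays at 35 or more, 46.2% were called higher, with a median of 0.50. BAX thus lay above, and BCL2L11 below, the median of the assays of its class, and BCL2 lay above that of its class. This mean includes the difference between the groups, so the change of an assay helps to set its class. BCL2 had a mean Ct of 35.6 in HEK293-vector and of 30.5 in HEK293-PRL-1, and its vector level alone would place it at 35 or more. BAX and BCL2L11 fall in the same class by either group. The part of this difference between the classes in the results was not tested.

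The assays most like each gene were taken as those with the smallest root mean square difference in their Ct over the 4 samples, after each assay was centred on its own mean. These are likenesses over 4 samples that include the difference between the groups, and they carry no test. BCL2 was nearest to COL12A1, a chain of collagen XII, at 0.346 cycles, followed by PIK3CA, the catalytic subunit of PI3-kinase, at 0.519 and APC, a scaffold of the β-catenin destruction complex, at 0.538. COL12A1 shared the gap between the vector samples, with Ct values of 37.3 and 35.4, against 32.1 and 31.7 in the PRL-1 samples. BAX was nearest to SOS2, an exchange factor for Ras, at 0.0639 cycles, then to the kinase gene MAPK8 at 0.141 and the phosphatase gene PPM1E at 0.155. BCL2L11 was nearest to TAF12, a subunit of the general transcription factor TFIID, at 0.0212 cycles, and the formin gene DIAPH1 was at 0.0714 cycles. The 3 genes were not close to each other. BAX and BCL2L11 differed by 0.440 cycles, and BCL2 differed from BAX by 1.71 and from BCL2L11 by 2.03 cycles.

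Kinase pathways act on these proteins. ERK phosphorylation marks BIM for degradation, JNK phosphorylates BIM and BCL2, AKT restrains the transcription factors that drive BCL2L11, and NF-κB drives survival genes. On the panel 34 assays belonged to the 5 lists set for these arms and for other survival-linked genes, of which 31 were tested. Relative to 18S, 21 of the 31 rose and 1 fell, with a median log2 fold change of 1.70, beside 58.6% higher, 7.47% lower and a median of 1.34 over the panel. With B2M as the reference 5 were higher and 14 lower, beside 12.6% higher and 47.1% lower over the panel. With GAPDH 16 were higher and 6 lower, beside 49.4% and 21.8% over the panel. The counts of each list below stand beside the same shares.

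In the JNK arm 5 of 6 tested assays rose and 1 did not pass, with a median of 2.35. The upstream kinase gene MAP3K5 rose by 3.53 (standard error 0.23), MAP2K4 by 2.70 (standard error 0.24), and the JNK genes MAPK9 and MAPK8 by 2.44 and 2.25. The other JNK kinase gene, MAP2K7, was at −0.003 (adjusted p = 0.992 from limma). With B2M none of the 6 was called higher and 1 was called lower, and with GAPDH 5 were higher and 1 was lower.

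In the ERK arm 3 of 6 tested assays rose and 3 did not pass, with a median of 1.40. MAP2K1, which encodes the ERK kinase MEK1, rose by 1.60. MAPK3, which encodes ERK1, was at −0.08 and MAP2K2 at 0.10. BRAF was at 40 in vector sample a and at 31.1 in sample b, against 29.7 and 29.3 in the PRL-1 samples, so that its fitted difference of 6.25 (95% interval −1.79 to 14.30) rests on 1 well at the limit, and it did not pass (adjusted p = 0.137 from limma). With B2M 1 of the 6 was called higher and 3 lower.

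In the PI3K-AKT arm 5 of 6 tested assays rose, with PIK3CA higher by 4.38, PIK3R1, its regulatory subunit, by 3.49 and IRS1, the adaptor of the insulin receptor, by 2.26. AKT1 did not pass, at −0.40 (adjusted p = 0.195 from limma), with Ct values of 26.0 and 26.3 in the vector samples and of 26.7 in both PRL-1 samples. With B2M 2 of the 6 were called higher and 2 lower. The assays of IGF1 and SGK1 were at 40 in all samples.

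In the NF-κB arm 5 of 7 tested assays rose and 1 fell, with a median of 0.98. CHUK, which encodes IKKα, rose by 4.05 and RIPK1, a kinase of death receptor signaling, by 2.48, while RELA, the p65 subunit, rose by 0.84. NFKB2, the p100 subunit, fell by 0.88 (adjusted p = 0.0329 from limma). With B2M 1 of the 7 was called higher and 4 lower. Among the other survival-linked genes 3 of 6 rose, HIF1A by 4.10, GSK3B by 2.82 and STAT3 by 1.07. CDKN1A was at −0.26 and did not pass (adjusted p = 0.355 from limma). ATF5 was at −0.36 and HSPB1, a chaperone, at 0.40, and neither passed. With B2M 1 of these 6 was called higher and 4 lower.

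**Figure D5:**
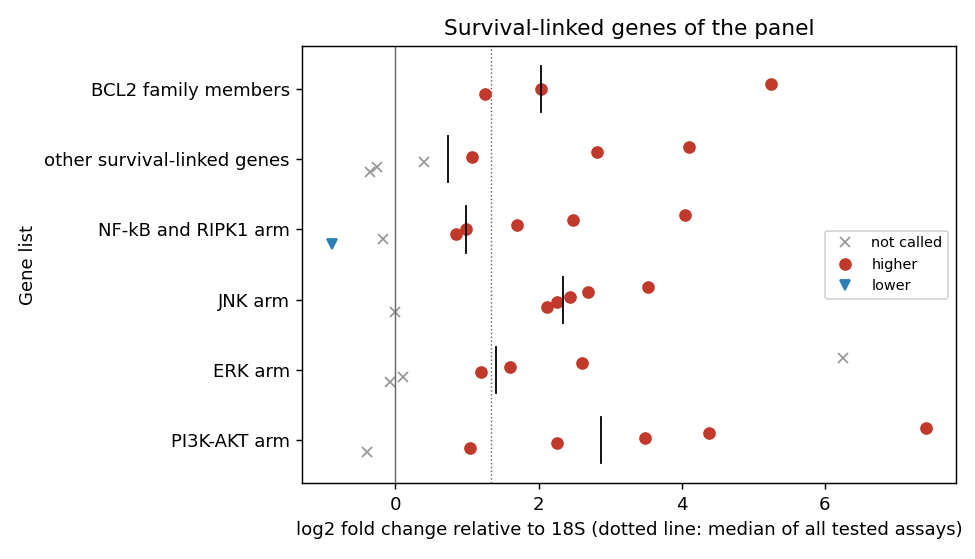
The log2 fold change relative to 18S of each tested assay of the 5 gene lists and of the 3 BCL2 family genes, 1 point per assay, marked by its limma call, with list medians as black bars. The dotted line is the median of all tested assays, 1.34. BCL2 (5.25) lies to the right of most points, and the medians of the lists run from 0.74 for the other survival-linked genes to 2.88 for the PI3K-AKT arm.

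Markers of other cell types gave little signal. The endothelial markers SELE and VCAM1 were at 40 in all samples, and PECAM1 was at 40 in both vector samples and at 38.5 and 38.7 in the PRL-1 samples, where it was called higher relative to 18S. Its part in the results was not tested. ITGB2, a leukocyte integrin, ranged from 37.5 to 40. No assay of the panel defines HEK293 cells. Raw 18S ranged from 13.9 to 14.2 cycles over the samples. Duplicate wells of 18S, GAPDH and B2M differed by a median of 0.0322 cycles over 12 pairs. The largest difference, 0.641 cycles, was that of B2M in vector sample a. Each BCL2 family gene had a single well per sample.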

How the data were processed

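Total RNA of 2 HEK293-vector and 2 HEK293-PRL-1 cultures was treated with DNase, reverse transcribed with random hexamers and amplified with TaqMan assays over 40 cycles, on 2 plates of 96 wells per sample. The values deposited by the authors are raw Ct per well, capped at 40 and not normalized. A deposited table of fold changes between the groups, made by the authors with 18S as the control, was not used. The submitters' processing notes name Partek 6.12.0531.

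The mean Ct of the 18S wells of a sample was subtracted from each of its Ct values. The 174 of 184 assays with a Ct below 40 in any sample entered the moderated test of limma 3.58.1 (R 4.3.3), whose p-values were adjusted by the Benjamini-Hochberg method and called at 0.05. Summaries were made in Python 3.11.15 with scipy 1.17.1. The assumed factor of 2 per cycle was not measured. The test was checked on simulated data with independent noise in each assay, which cannot show how errors shared by the assays of a sample act. Genes, lists and comparisons were chosen with earlier results of these data known. Besides the 3 genes, the references and PTP4A1, named genes are those of the lists and the 3 assays most like each gene. Some of these genes are not reported here by name. The study's 2 cultures per group limit the precision, and Ct values have no read depth. Alternatives changed the reference, the assays tested, the variance, the factor per cycle and the samples.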

Additional observations from a re-analysis of the deposited data

How the results depend on the processing

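The precision is limited by 2 samples per group and 1 well per gene. Every alternative was run for the 3 genes. BCL2 kept its direction with all of them and, with no sample left out, its call with all but its own variance (5.25, adjusted p = 0.0596). Leaving out a sample gave 4.43 to 6.07. The value of BAX was −0.35 against B2M and −0.16 against the median Ct. With no sample left out BAX kept its call otherwise, and leaving out a sample gave 1.93 to 2.12. The value of BCL2L11 was 0.70 against GAPDH, −1.12 against B2M and −0.93 against the median Ct. Its call was lost on its own variance (1.26, adjusted p = 0.107), and leaving out a sample gave 0.93 to 1.59. The median log2 fold change of the tested assays was 1.34 against 18S, 0.79 against GAPDH, −1.04 against B2M and −0.85 against the median Ct. The number of assays called higher was 102 with 18S, 22 with B2M, 45 with the median Ct and 42 on their own variance, and 74 to 108 with each sample left out. Lower calls numbered 13 against 18S, 38 against GAPDH, 82 against B2M and 90 against the median Ct, and 7 to 19 with each sample left out. Of the assays of the 5 lists, 21 were higher with 18S, 5 with B2M, 7 with the median Ct and 9 on their own variance (13 to 22 with a sample left out), and 1, 14, 16 and 0 were lower in that order, with 6 for GAPDH (0 to 2 with a sample left out). With a factor of 1.9 per cycle BCL2 was at 4.86, BAX at 1.88 and BCL2L11 at 1.16, with unchanged p-values.

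The pair of BCL2 and BAX ran from 2.44 to 4.01 and that of BCL2 and BCL2L11 from 3.50 to 4.48 with each sample left out, and that of BCL2L11 and BAX from −1.07 to −0.47. With a factor of 1.9 for the first assay of the pair alone these were 2.85, 3.62 and −0.85. The letters a and b of the columns may or may not pair the samples, and the difference of a from b in HEK293-vector had a Spearman correlation of 0.048 with that in HEK293-PRL-1 over the 174 assays. With these letters as a replicate block the 3 genes kept their calls (adjusted p = 0.00288 for BCL2, 0.00276 for BAX and 0.0113 for BCL2L11, limma). In the limma fits of the pairs, BCL2 relative to BAX (3.22) and relative to BCL2L11 (3.99) passed the threshold without the replicate block and with it, and BCL2L11 relative to BAX (−0.77) passed only with it (adjusted p = 0.0381). What causes these changes was not tested.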
